A study of Rattus norvegicus with 12 samples.

Results

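The genes described here encode the core of the splicing machinery and the RNA-binding proteins that coat nascent transcripts. They were all rat genes with a probe set of a single symbol that starts with Hnrnp, Srsf, Snrp, U2af, Sf3a, Sf3b or Prpf. There were 61 such genes among the 14218 genes named by the array, measured by 100 of its 31099 probe sets. They comprised 17 Hnrnp, 11 Srsf, 10 Snrp, 3 U2af, 3 Sf3a, 6 Sf3b and 11 Prpf genes. Each gene was represented by its probe set with the highest mean signal over the 12 arrays, and 21 genes had further probe sets. Srsf7-ps4, a pseudogene, entered through its symbol and is counted among the 61. A further 8 probe sets name such a gene together with another symbol and were left out. Hnrnpk, Snrpc and Snrpg are therefore not represented, and Srsf3 and Snrpn rest on dim probe sets.

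Splicing removes introns in a fixed order of steps. Small nuclear ribonucleoproteins (snRNPs), each with a ring of Sm proteins, recognise the ends of the intron, and the U2AF heterodimer and the SF3 complexes of the U2 snRNP mark the polypyrimidine tract, the 3′ splice site and the branch point. PRPF proteins belong to the U1, U4/U6 and U5 particles and to the complex that activates the spliceosome. SR proteins bind exons and mostly favour their use, whereas hnRNPs bind exons and introns and often oppose it. Round spermatids are known for a transcript repertoire and a pattern of alternative splicing unlike those of somatic cells.

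RNA of inbred Dark Agouti rats was measured on Affymetrix Rat Genome 230 2.0 arrays in 4 groups with 3 biological replicates each. RAH-6 and RAH-2 are 2 lines of androgenetic haploid embryonic stem (ES) cells, together called RahES, that is, lines whose genome comes from the father alone. The diploid line is DA5-3, and all 3 lines were kept in N2B27-2i medium and dissociated with trypsin. Round sperm cells are haploid germ cells that were isolated fresh and had not been cultured. Age and number of the animals are not given in the sources used here, nor whether replicates came from separate cultures or animals, so p-values measure the spread between these samples, which may be technical. DA5-3 is the single diploid line, so ploidy, parental origin and line cannot be told apart in RahES against DA5-3, and culture cannot be told apart from cell type in ES cells against round sperm cells.

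The values are MAS5 signals, scaled so that the trimmed mean of each array is 500, and a fold change is a log2 difference of signal + 16, given with its standard error (SE). The scaling makes a signal a share of the array, so less RNA per cell and fewer cells of a type cannot be told apart in these bulk samples, and neither can a change in the total amount of RNA. Between 47.3% and 49.0% of probe sets reached a signal of 100 on the ES cell arrays, and between 40.3% and 42.5% on those of round sperm cells. The ratio of the 3′ to the 5′ control probe sets of Gapdh, a measure of RNA integrity, was 1.14 for RAH-6, 1.26 for RAH-2, 1.47 for DA5-3 and 2.18 for round sperm cells on average. The same ratio of actin was 3.09 for RAH-6, 4.36 for RAH-2, 6.19 for DA5-3 and 4.09 for round sperm cells, so the order of the groups differed between the control genes. The summed signal of 8 spermatid markers lay between 105 and 214 in ES cells and between 221585 and 240562 in round sperm cells. That of 3 spermatocyte markers lay between 708 and 3096 in ES cells and between 18057 and 21751 in round sperm cells, mostly Sycp3, which read 17199, 14971 and 13913 in round sperm cells. Of 6 Sertoli cell markers the sum was between 13375 and 15732 in ES cells and between 859 and 1028 in round sperm cells. Rhox5 gave nearly all of it in ES cells, with 13096 to 14986 there and at most 43.3 in round sperm cells. Wt1, Cldn11 and Clu were higher in round sperm cells than in ES cells, whereas Amh and Inhbb overlapped. The sum of 5 spermatogonial markers was between 719 and 986 in ES cells and between 767 and 959 in round sperm cells. The 5 ES cell markers on the array summed to between 19182 and 28022 in ES cells and to between 6514 and 7505 in round sperm cells, where Klf4 gave nearly all of it and Sox2 read at most 10.1. All 6 macrophage and blood markers together read at most 826 in ES cells and between 2794 and 3109 in round sperm cells, and all 5 Leydig cell markers at most 153 in ES cells and between 632 and 969 in round sperm cells. Of these, Ptprc, which defines leukocytes, stayed at or below 54.2 in round sperm cells, and Hbb and Lyz2 each exceeded 1000 there. The part of these markers and of RNA integrity in the results with round sperm cells was not tested.

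Promoter sequences of 6 genes are shown first because these genes lie at both ends of the comparison with round sperm cells. Snrpb, Prpf19 and Srsf2 were among the genes higher in ES cells by the widest margin. U2af1l4, Prpf40b and Hnrnpul1 were the 3 genes higher in round sperm cells by at least 2-fold. The sequences are RefSeq's for the assembly GRCr8 and run 5′ to 3′ in the direction of transcription from 250 bases before the annotated start to 50 bases after it. Capitals mark matches, on either strand, to 5 short motifs, namely the ETS core CCGGAAG, the YY1 core GATGGCG, the CRE core TGACGT, the CCAAT box and the NRF1 core GCGCATG.
Snrpb (chr3:137832430-137832729, minus strand): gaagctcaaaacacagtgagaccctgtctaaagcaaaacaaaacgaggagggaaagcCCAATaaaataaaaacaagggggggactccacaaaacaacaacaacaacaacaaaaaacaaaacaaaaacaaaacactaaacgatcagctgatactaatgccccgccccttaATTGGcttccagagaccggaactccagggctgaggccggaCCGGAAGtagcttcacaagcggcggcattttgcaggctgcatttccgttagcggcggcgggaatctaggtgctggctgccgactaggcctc
Prpf19 (chr1:216966257-216966556, plus strand): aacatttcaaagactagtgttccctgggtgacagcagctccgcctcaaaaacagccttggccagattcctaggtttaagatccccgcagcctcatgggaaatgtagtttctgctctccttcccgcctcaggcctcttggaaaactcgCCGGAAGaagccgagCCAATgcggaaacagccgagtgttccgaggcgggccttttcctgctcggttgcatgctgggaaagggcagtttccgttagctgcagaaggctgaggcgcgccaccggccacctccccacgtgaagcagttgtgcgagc
Srsf2 (chr10:102554092-102554391, minus strand): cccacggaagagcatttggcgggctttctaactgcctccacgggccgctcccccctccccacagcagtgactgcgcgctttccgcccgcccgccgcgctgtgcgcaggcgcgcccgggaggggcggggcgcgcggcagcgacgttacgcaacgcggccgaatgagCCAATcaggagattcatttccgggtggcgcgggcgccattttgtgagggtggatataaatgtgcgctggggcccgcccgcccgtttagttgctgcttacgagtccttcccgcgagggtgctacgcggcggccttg
U2af1l4 (chr1:94943511-94943810, plus strand): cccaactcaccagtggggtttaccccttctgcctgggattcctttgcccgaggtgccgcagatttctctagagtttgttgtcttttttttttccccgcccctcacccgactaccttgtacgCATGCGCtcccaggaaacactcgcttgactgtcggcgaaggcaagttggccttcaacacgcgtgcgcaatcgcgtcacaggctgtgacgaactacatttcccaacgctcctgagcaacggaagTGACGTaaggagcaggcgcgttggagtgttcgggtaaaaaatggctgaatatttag
Prpf40b (chr7:132318418-132318717, plus strand): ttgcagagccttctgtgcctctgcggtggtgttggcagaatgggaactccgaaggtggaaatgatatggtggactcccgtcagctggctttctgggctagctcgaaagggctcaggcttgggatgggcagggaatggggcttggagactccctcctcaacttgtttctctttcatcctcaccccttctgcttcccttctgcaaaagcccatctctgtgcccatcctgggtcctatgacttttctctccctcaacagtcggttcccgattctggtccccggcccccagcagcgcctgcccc
Hnrnpul1 (chr1:90390321-90390620, minus strand): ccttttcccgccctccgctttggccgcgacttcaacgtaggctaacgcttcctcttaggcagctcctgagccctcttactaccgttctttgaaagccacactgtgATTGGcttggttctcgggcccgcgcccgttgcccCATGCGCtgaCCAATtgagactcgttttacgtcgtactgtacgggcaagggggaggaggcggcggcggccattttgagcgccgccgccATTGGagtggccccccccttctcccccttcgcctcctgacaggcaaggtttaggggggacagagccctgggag

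Of the 61 genes, 57 had a RefSeq promoter entry. The ETS core was present in 17 of these promoters (29.8%), against 15.1% of the 11734 promoters of all genes on the array. A CRE core was present in 13 (22.8%), against 10.6% of all, and a CCAAT box in 31 (54.4%), against 37.3% of all. NRF1 cores occurred in 6 (10.5%), against 5.91% of all, and the YY1 core in 3 (5.26%), against 6.42% of all. These shares are a description of the letters in the window without a test, and no match of 1 motif overlapped that of another in the 57 promoters. The ETS core was found in all 3 Sf3a genes, the CRE core in U2af1 and U2af1l4 and in 5 Srsf genes, and none of the 5 motifs in 9 promoters, Prpf40b included. Median GC content was 59.3% in the 57 promoters and 60% in all, and the median number of CpG dinucleotides was 24 against 19.

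RahES against round sperm cells asks how the haploid ES cells differ from the haploid cells of the male germ line. Most splicing genes had higher signals in RahES. Of 59 genes tested, 38 (64.4%) were higher and 3 (5.08%) lower, at an adjusted p below 0.05 and a change of at least 2-fold, while 43.2% of all 10529 genes tested were higher and 28.9% lower by the same rule. The median log2 fold change was 1.74, against 0.59 over all genes. Arrays of the 2 groups did not overlap for 94.9% of the splicing genes, against 88.7% of all genes, so lack of overlap was common. Among the 61 genes, 56 reached a signal of 100 on all 12 arrays. Of the other 5, Prpf39, Srsf3 and Srsf7-ps4 passed the filter of 100 on at least 3 arrays of the fit through their ES cell signals, and Snrpn and Srsf7 missed it and were not tested. The median over all genes depends on the scaling and was 0.27 with median centring and 0.25 with quantile normalization. The median of the splicing genes lay 1.15 above that of all genes in the scaling used and 1.42 above it with quantile normalization. Median centring shifts all genes of an array alike, so it cannot change this difference.

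**Figure D1:**
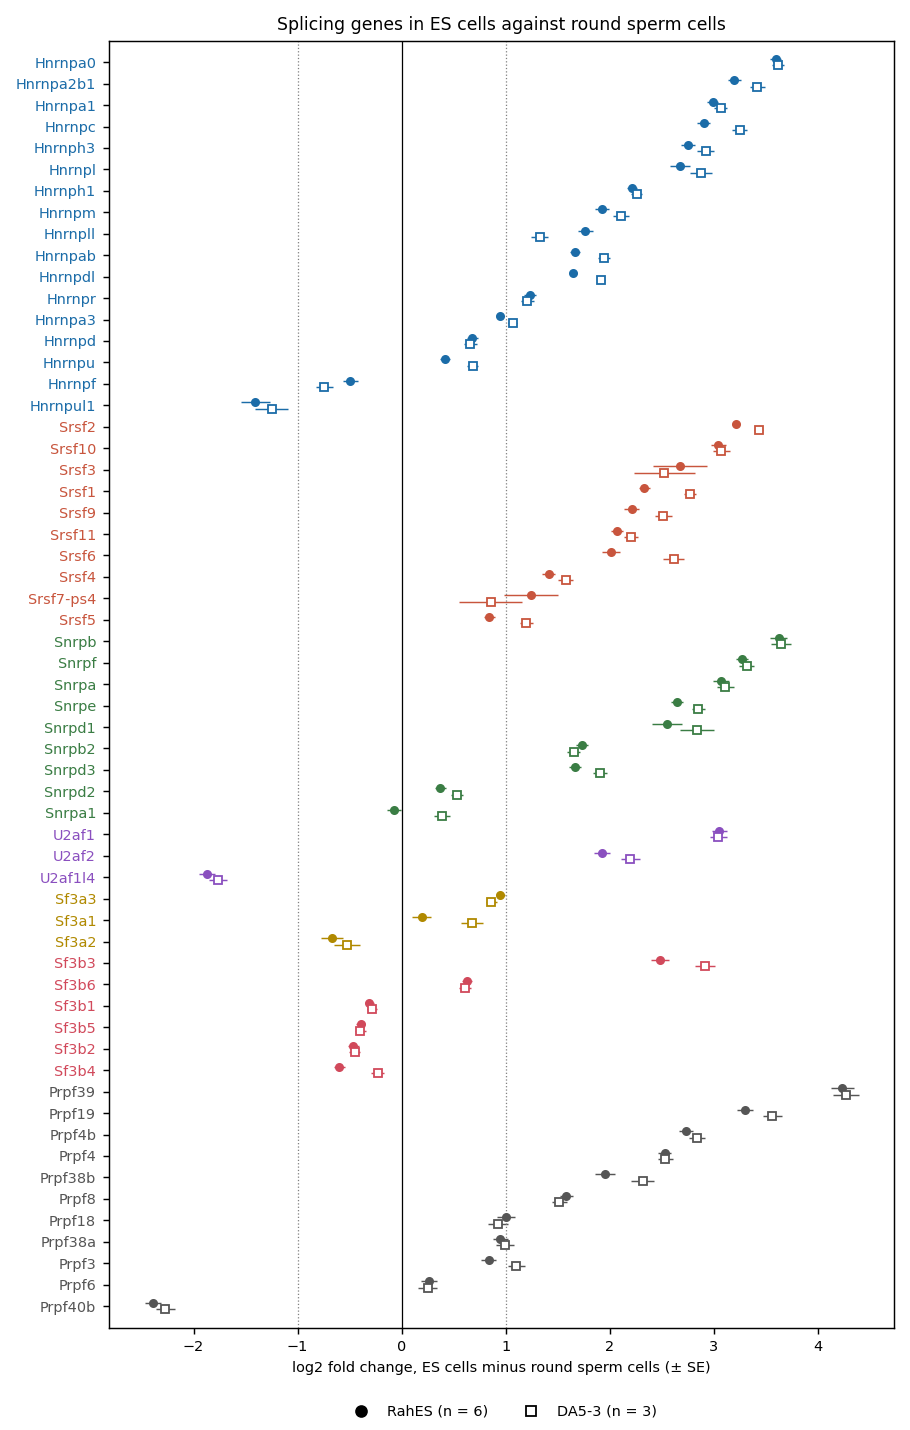
Log2 fold change of 59 splicing genes (x axis, ± SE), with filled circles for RahES (n = 6) and open squares for DA5-3 (n = 3), each minus round sperm cells (n = 3), and colours for gene families; dotted lines mark a change of 2-fold. Most Hnrnp, Srsf and Snrp genes lie right of the upper line, the Sf3a and Sf3b genes other than Sf3b3 lie between the lines, and Prpf40b, U2af1l4 and Hnrnpul1 lie left of the lower line.

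The families differed in these counts. Higher were 9 of 10 Srsf genes (median 2.14), the pseudogene Srsf7-ps4 included, 7 of 9 Snrp genes (median 2.55), 12 of 17 Hnrnp genes (median 1.77) and 7 of 11 Prpf genes (median 1.58), and 1 Hnrnp and 1 Prpf gene were lower. Among the U2AF genes 2 were higher and 1 lower. None of the 3 Sf3a genes (median 0.19) was called, and 1 of 6 Sf3b genes (median -0.35) was higher. Differences between families were not tested.

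Among the hnRNPs, Hnrnpa2b1 encodes a protein that binds exonic and intronic sites and can repress exon inclusion. Its signal lay between 9924 and 11934 with a median of 10576 in RahES, against 1227, 1001 and 1231 in round sperm cells. The ranges were far apart and the log2 fold change was 3.20 ± 0.062 (limma, adjusted p = 2.0e-15). Hnrnpa1, its close relative, averaged 13431 ± 650.1 in RahES (SD, n = 6) and 1682 ± 186 in round sperm cells (SD, n = 3), a change of 2.99 ± 0.056. Hnrnpa0, which binds AU-rich RNA, had the widest change of the family at 3.60 ± 0.051, with 8718 ± 621 in RahES and 707 ± 68.5 in round sperm cells. Hnrnpc, whose product binds uridine tracts of nascent RNA, was higher by 2.90 ± 0.064.

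Hnrnpul1, which encodes an hnRNP U-like protein, was the exception. Its signals were between 469.9 and 708 with a median of 557 in RahES, against 1457, 1693 and 1489 in round sperm cells. No RahES array reached the lowest of round sperm cells, and the gene was lower in RahES with a log2 fold change of -1.41 ± 0.14 (limma, adjusted p = 1.9e-07). Between these extremes Hnrnpf, a binder of G tracts, was lower by less than 2-fold (-0.49 ± 0.072), and Hnrnpu (0.42) and Hnrnpd (0.68) higher by less than 2-fold.

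In the SR family Srsf2, which binds exonic enhancers, had the smallest p of all members. Its signals lay between 12675 and 14414 with a median of 13845 in RahES, against 1493, 1453 and 1451 in round sperm cells. The change was 3.21 ± 0.04 (limma, adjusted p = 3.4e-17). Srsf1, the founding SR protein and a regulator of 5′ splice site choice, averaged 5780.0 ± 540.0 in RahES and 1132 ± 85.2 in round sperm cells (2.33 ± 0.051). By its dim set Srsf3 read 58.3, 12.2 and 38.1 in round sperm cells, all below 100, and 297 ± 51.4 in RahES. Its change by that set was thus a bound of at least 2.93-fold over a signal of 100. A far brighter set, annotated also to LOC100910660 and left out, averaged 13512 in RahES and 812 in round sperm cells. Only Srsf5 of the 10 tested was not called, with 0.84 ± 0.054, short of 2-fold. Srsf7-ps4 was called at 1.24 ± 0.26 from dim signals of 148 to 296 in RahES and 136, 62.6 and 51.5 in round sperm cells. A probe set of a pseudogene can also bind transcripts of near-identical genes, so that value is uncertain.

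The snRNP proteins had the highest family median. Snrpb encodes the SmB proteins of the ring that all spliceosomal snRNPs of the Sm class share. Its signals lay between 5526 and 6159 with a median of 6036 in RahES, against 392, 545 and 479 in round sperm cells, and the change was 3.63 ± 0.081 (limma, adjusted p = 7.3e-15). Other subunits of the ring were higher too, Snrpf by 3.27, Snrpe by 2.65, Snrpd1 by 2.55 and Snrpd3 by 1.67. Snrpd2, the remaining ring subunit measured, was higher by 0.37, which is short of 2-fold. Ring subunits thus did not share 1 fold change, although all 6 passed the adjusted p, as did 54.7% of all genes in that direction. Of the proteins specific to 1 particle, Snrpa of the U1 snRNP was higher by 3.07 ± 0.074 and Snrpb2 of the U2 snRNP by 1.74 ± 0.055. Snrpa1, also of the U2 snRNP, averaged 3103 ± 244 in RahES and 3268 ± 254 in round sperm cells, and the groups overlapped (-0.075 ± 0.066, adjusted p = 0.28).

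The factors of the 3′ splice site split into members that were far higher in RahES and members that were not. U2af1, the subunit that reads the AG at the end of the intron, had signals between 9761 and 12258 with a median of 10989 in RahES, against 1352, 1352 and 1193 in round sperm cells (3.05 ± 0.071, adjusted p = 1.1e-14). U2af2, which binds the polypyrimidine tract, averaged 3578 ± 242 in RahES and 935 ± 129 in round sperm cells (1.92 ± 0.078). U2af1l4, a paralog that can take the place of U2af1, ran the other way. It read between 594 and 705 with a median of 622 in RahES, against 2406, 2292 and 2377 in round sperm cells, lower in RahES with a log2 fold change of -1.87 ± 0.077 (limma, adjusted p = 7.5e-12). The small subunit and its paralog therefore differed in direction on the same arrays.

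In the SF3B complex, which contacts the branch point, Sf3b3 alone was called. Its signals lay between 2420.4 and 3366 with a median of 2991 in RahES, against 516, 486 and 545 in round sperm cells (2.48 ± 0.086, adjusted p = 9.9e-13). Sf3b1, the scaffold that holds the branch site, read between 8214 and 9466 with a median of 8817 in RahES, against 11607, 10573 and 10637 in round sperm cells (-0.31 ± 0.042). The subunits Sf3b4 (-0.60), Sf3b2 (-0.46) and Sf3b5 (-0.39) likewise passed the adjusted p with lower signals in RahES, short of 2-fold, as did 38.1% of all genes, and Sf3b6 was higher by 0.63. The sign of Sf3b1 depended on scaling, since it was -0.63 with median centring and 0.15 with quantile normalization, and with the last scaling Sf3b2 (-0.10) and Sf3b5 (-0.07) no longer passed. Set against the median of all genes, Sf3b1 differed by -0.90 on the log2 scale in the scaling used and by -0.097 with quantile normalization. Median centring shifts all genes of an array alike and cannot change this difference. The SF3A genes were within 2-fold, with -0.67 for Sf3a2, 0.19 for Sf3a1 and 0.95 for Sf3a3, and Sf3a1 was negative under both other scalings.

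Among the PRPF genes, Prpf39, named after a U1-associated protein of yeast, had the largest change of any member. It read between 2355 and 2449 with a median of 2380.4 in RahES, against 83.2, 115 and 143 in round sperm cells, where 1 array lay below 100, and the change was 4.24 ± 0.11 (limma, adjusted p = 3.1e-14). Prpf19, the ubiquitin ligase of the complex that activates the spliceosome, had signals between 2586 and 2936 with a median of 2848 in RahES, against 258, 273 and 282 in round sperm cells (3.31 ± 0.077). Prpf8, the U5 protein at the catalytic centre, averaged 3659.7 ± 117 in RahES and 1213 ± 101 in round sperm cells (1.58 ± 0.06). These 3 genes, of the U1, activating and U5 assemblies, were higher on every RahES array than on any array of round sperm cells. Of all genes, 88.7% had no overlap between these groups, in either direction. Of the U4/U6 proteins Prpf4 was higher by 2.53, and Prpf3 had 0.84, short of 2-fold. Prpf6, which bridges particles of the tri-snRNP, had 0.26 and a negative value with median centring.

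Prpf40b went the other way and was the member with the widest change toward round sperm cells. It is related to a yeast U1 protein with WW domains. Its signals were between 302 and 348 with a median of 312 in RahES, against 1663, 1803 and 1741 in round sperm cells, lower in RahES with a log2 fold change of -2.39 ± 0.078 (limma, adjusted p = 5.0e-13). For Prpf39 and Prpf40b, both linked to U1, the changes were thus opposite.

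**Figure D2:**
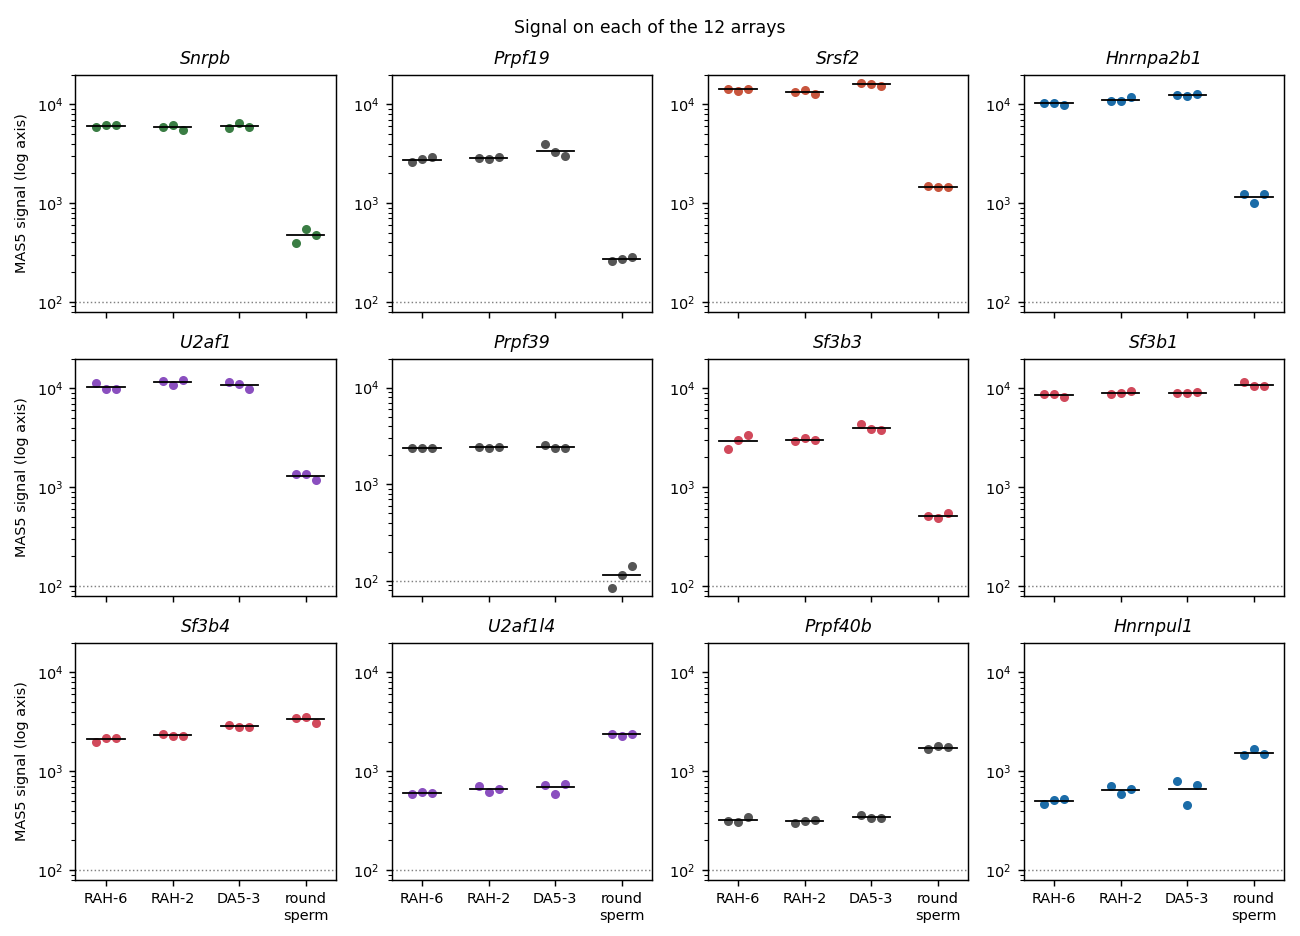
MAS5 signal (log axis) of 12 splicing genes on each of the 12 arrays, with points for arrays, black lines for group means (n = 3 per group) and a dotted line at a signal of 100. The ES cell points lie above those of round sperm cells for the first 7 genes and below them for Sf3b1, Sf3b4, U2af1l4, Prpf40b and Hnrnpul1.

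DA5-3 against round sperm cells puts the same question to diploid ES cells, with the same round sperm arrays as reference, so it is no independent repeat. Of 59 genes tested, 39 (66.1%) were higher and 3 lower, while 43.2% of all genes were higher and 29.4% lower. The median was 1.92, against 0.56 over all genes. Arrays did not overlap for 98.3% of the splicing genes, against 90.7% of all genes. Prpf39 was again the most changed at 4.27 ± 0.12, followed by Snrpb (3.65), Hnrnpa0 (3.62), Prpf19 (3.56) and Srsf2 (3.43). Hnrnpa2b1 (3.42), Snrpf (3.32), Hnrnpc (3.25), Snrpa (3.11) and Srsf10 (3.07, by its brightest probe set) completed the largest 10. Hnrnpa2b1 was short of 2-fold (0.70) with the probe set that was brightest in round sperm cells. Per array, Prpf19 read 3925, 3295 and 2975 and Srsf2 16526, 15979 and 15435 in DA5-3, all above the round sperm values given for RahES.

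The 3 genes lower in RahES by at least 2-fold were lower in DA5-3 as well. Prpf40b read 362, 337 and 339 in DA5-3 and fell by 2.27 ± 0.09, U2af1l4 read 722, 590.2 and 744 and fell by 1.77 ± 0.089, and Hnrnpul1 read 793, 457 and 722 and fell by 1.25 ± 0.16, all on the log2 scale. Hnrnpa1 (3.07), U2af1 (3.04), Srsf1 (2.77), U2af2 (2.20) and Prpf8 (1.52) were higher, and Srsf3 was at least 2.62-fold higher by its dim set. Sf3b1 had -0.28 ± 0.048, which became 0.081 with quantile normalization.

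Different probe sets of a gene gave different sizes of change. Of 19 genes with several probe sets tested in RahES against round sperm cells, 14 spanned more than 1 on the log2 scale between their probe sets. Of the 33 probe sets not used for the gene values, 25 were higher and 2 lower in RahES by fitted values and the rule above. For 2 of the higher and 1 of the lower sets all arrays of the dimmer group were below 100 and the bound was less than 2-fold. The 1 remaining lower set belonged to Srsf10, a relative of the SR proteins known as a repressor when dephosphorylated. Its brightest set averaged 2732 in RahES and 316 in round sperm cells (3.05), while another averaged 397 in RahES and 951 in round sperm cells (-1.23). A dimmer set, below 100 on all RahES arrays, was at least 1.88-fold lower in RahES. The direction of Srsf10 therefore depends on the probe set, and the gene is counted as higher by its brightest set alone.

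Other genes had sets that differed in size. The brightest set of Srsf1 gave 2.33, and its other set averaged 4966 in RahES and 62 in round sperm cells, at least 49.5-fold higher in RahES. Hnrnpa3 was not called by its brightest set (0.94), while other sets gave 5.30 and 3.77, and sets that were below 100 in round sperm cells were at least 24.4-fold and 6.55-fold higher. For Hnrnph3 the brightest set gave 2.75 and the other -0.38, which was lower in RahES by less than 2-fold. Sf3b1 had -0.31 from its brightest set, 0.069 from another and at least 1.48-fold higher signals from a dim one. What part of a transcript each set reads was not analysed here. Among the ES cell lines 0 of 19 genes spanned more than 1 between probe sets.

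**Figure D3:**
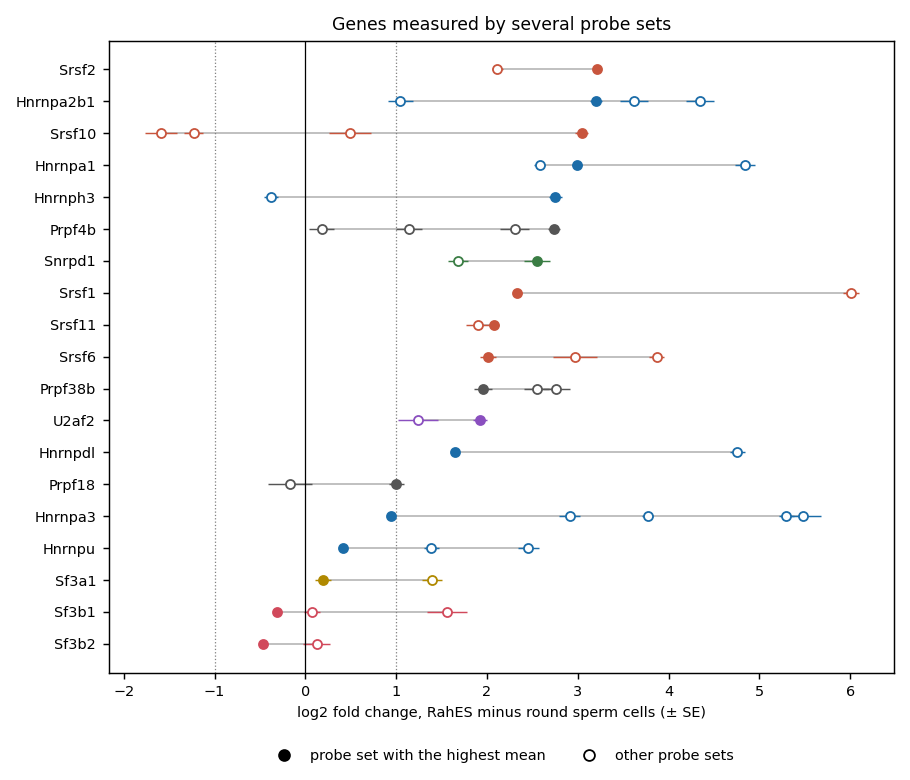
Log2 fold change (x axis, ± SE) of RahES (n = 6) minus round sperm cells (n = 3) for each probe set of 19 splicing genes, filled for the set with the highest mean and open for the others; dotted lines mark 2-fold. Srsf10 has a set at 3.05 and another at -1.23, beyond opposite lines, and its set plotted at -1.60 was below 100 in RahES, so that it stands for a bound of 1.88-fold only; the sets of Srsf1 and Hnrnpa3 are far apart on the same side.

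Other genes of the splicing pathway were counted in 5 lists written from general knowledge. Of 50 helicases and core spliceosome proteins tested (55 listed), 23 were higher and 3 lower in RahES than in round sperm cells (median 0.93, against 0.59 over all genes). Of all genes 43.2% were higher and 28.9% lower, which holds for each list of this comparison, and counts near these shares say nothing about a list. Higher were Phf5a, a small subunit of the SF3B complex without the Sf3b prefix, by 3.57, Rbm25 by 2.94 and Crnkl1 by 2.12. Cwc22, which brings the exon junction complex to the spliceosome, was at least 11.7-fold higher. Among 10 exon junction complex genes (13 listed) 4 were higher and 0 lower (median 0.67), namely Rnps1 (3.72), the mRNA export factor Alyref (3.10), the core subunit Magoh (2.84) and the decay factor Upf3b (2.66). The share of higher genes in both lists was near that of all genes. Lower genes were few in both, 3 of 50 and 0 of 10, against 28.9% of all genes, a difference that was not tested. The 5 list medians all lay below the 1.74 of the splicing genes.

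Of 14 SR kinases and SR-related proteins (16 listed) 6 were higher and 4 lower (median 0.43), near the shares of all genes. The exon activators Tra2a (3.44) and Tra2b (2.32) and the SR-related Srek1 (4.15) were higher, whereas the SR protein kinase Clk3 averaged 606 in RahES and 3388 in round sperm cells (-2.46). Of 26 snRNP assembly genes (27 listed) 12 were higher and 6 lower (median 0.94), again near the shares of all genes. Tgs1, which hypermethylates the snRNA cap, was at least 22.6-fold higher, and the snRNA export adaptor Phax was higher by 3.30. Ddx20, a partner of the SMN protein, averaged 1355 in RahES and 11945 in round sperm cells (-3.13), and Coil, the scaffold of Cajal bodies, 738 in RahES and 6229 in round sperm cells (-3.05). Of 41 tissue regulators of splicing (54 listed) 23 were higher and 10 lower (median 1.29), with Elavl1 (5.24), Rbm39 (4.89), Ptbp3 (4.62) and Celf1 (4.18) higher. Their fitted log2 fold changes ran from -5.83 to 5.68. The lower end, chosen after the values were seen, was Rbm4, an exon regulator, with 55.3 in RahES and 3974 in round sperm cells, at least 39.6-fold lower. Next came the germ cell RNA-binding gene Ybx2 (-4.88) and the poly(C)-binding gene Pcbp3 (-4.26). The counts are by fitted values and include Rbfox1 among the lower and Rbmx and Mbnl3 among the higher regulators, whose bounds are below 2-fold.

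In DA5-3 against round sperm cells the same lists had 26 higher and 1 lower of 50 core proteins, 4 higher and 1 lower of 10 exon junction genes, 7 higher and 2 lower of 14 SR kinases and SR-related genes, 11 higher and 5 lower of 26 assembly genes and 25 higher and 8 lower of 41 tissue regulators, against 43.2% higher and 29.4% lower of all genes. These counts, too, include Rbfox1, Celf3 and Lsm11 with bounds below 2-fold. The SR protein kinase Srpk2 fell by 2.83 on the log2 scale in DA5-3, and the hnRNP-like Syncrip was at least 35.5-fold higher.

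RahES against DA5-3 asks what sets the haploid ES lines apart from a diploid one. No splicing gene differed by 2-fold, while 3.68% of all 9282 genes tested were higher and 2.84% lower at that size. By adjusted p alone, 2 genes (3.39%) were higher and 27 (45.8%) lower, against 31.1% and 26.1% of all genes. The median was -0.13, against 0.03 over all genes. Arrays did not overlap for 44.1% of the splicing genes, near the 44.3% of all genes. The median coefficient of variation of the splicing genes between replicates was 3.54% for RAH-6, 4.12% for RAH-2 and 5.45% for DA5-3. Over the 10529 genes tested against round sperm cells it was 6.96%, 7.38% and 9.05%. That set holds genes that are dim in ES cells, and genes of like signal were not compared. Markers of fibroblasts, the usual feeder cells, moved with this comparison in part. All 8 summed to between 3411 and 3430 on RAH-6 arrays and between 679 and 3833 on RAH-2 arrays. Replicate 2 of RAH-2 stood apart, as Col1a2 read 126, 1009 and 187 and Col5a2 97.9, 1117 and 151 in RAH-2. On DA5-3 arrays the sum of all 8 lay between 31337 and 34156, nearly all of it from Col1a1, Col1a2, Col3a1, Col5a2 and Acta2. The other markers, Thy1, Pdgfrb and Lum, read at most 100.2 on any ES cell array. The 3′ to 5′ ratios of Gapdh and actin, given above, differed between the lines too, and the part of both in the result was not tested.

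The largest difference was that of Srsf6, an SR protein that binds exonic enhancers. It read between 2855 and 3745 with a median of 3279 in RahES, against 5218, 4326 and 5379 in DA5-3. The ranges did not overlap, and signals were lower in RahES with a log2 fold change of -0.60 ± 0.075 (limma, adjusted p = 2.2e-05). Its other probe sets gave -0.10 and -0.27 and did not pass the adjusted p. Srsf1 had between 5154 and 6294 with a median of 5852 in RahES, against 7376, 8004 and 8063 in DA5-3, and fell by 0.44 ± 0.041 (adjusted p = 1.8e-06). Srsf5 (-0.36 ± 0.052) and Srsf2 (-0.22 ± 0.04) were lower, although another set of Srsf2 gave 0.041, not past the adjusted p. Of 10 SR genes tested 6 were lower and 0 higher by adjusted p.

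In the U2 snRNP, Snrpa1 had between 2868 and 3460.0 with a median of 3036 in RahES, against 4511, 4034 and 4303 in DA5-3 (-0.46 ± 0.06, adjusted p = 2.8e-05). Sf3a1 (-0.48 ± 0.086), Sf3b3 (-0.43 ± 0.084) and Sf3b4 (-0.37 ± 0.046) were lower as well. U2af2 fell by 0.28 on the log2 scale, whereas U2af1 had 0.011 ± 0.066 and Sf3b1 -0.028 ± 0.038, neither past the adjusted p. Of the PRPF genes Prpf38b, of a family found in the tri-snRNP, fell by 0.36 ± 0.055 by its brightest set, Prpf3 (-0.26) and Prpf19 (-0.26) were lower, and Prpf8 had 0.066 ± 0.051. Other sets of Prpf38b gave -0.23 and 0.28, and the dim other set of U2af2 0.43, none past the adjusted p, so signs differed between sets of both genes. The call of Prpf19 ended (limma, adjusted p = 0.058) when 3 arrays were dropped after the data were seen. These were replicate 1 of DA5-3, replicate 2 of RAH-2 and replicate 1 of round sperm cells.

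Among hnRNPs 9 of 17 were lower, among them Hnrnpc (-0.34 ± 0.037) and Hnrnpa2b1 (-0.22 ± 0.042), and 2 were higher. Hnrnpll, known from mouse T cells as a regulator of alternative exons of the CD45 gene, read 2928, 2646 and 2604 in RAH-6 and 3251, 3041 and 3614 in RAH-2, against 2226, 2052 and 2348 in DA5-3. Every RahES array lay above every DA5-3 array (0.44 ± 0.064, limma, adjusted p = 8.2e-05), while 44.3% of all genes had no overlap in either direction. Hnrnpf was the other, at 0.25 ± 0.072. Hnrnpa3, lower by adjusted p (-0.13), became positive (0.098) with quantile normalization, and 2 of its other sets were higher by adjusted p (0.22 and 0.38). Hnrnpa2b1 had a positive value (0.35, adjusted p = 0.040) when represented by the probe set that was brightest in round sperm cells, and another set gave 0.68. Snrpb (-0.023 ± 0.048), Hnrnpa1 (-0.079 ± 0.033) and Srsf3 (0.15 ± 0.15) did not pass the adjusted p. Among the 5 other lists the tissue regulators alone had calls at 2-fold, with 2 of 37 lower, the neuronal RNA-binding gene Elavl2 (-1.33) and the stress granule gene Tia1 (-1.13). By adjusted p alone, 26 of the 37 (median -0.23) were lower and 3 higher. Core proteins had 20 lower and 4 higher of 50, and assembly genes 11 and 4 of 26. SR kinases and SR-related genes had 8 and 2 of 14, and exon junction genes 4 and 1 of 10. Of all genes 26.1% were lower and 31.1% higher, so the excess of lower genes was not particular to the splicing genes.

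**Figure D4:**
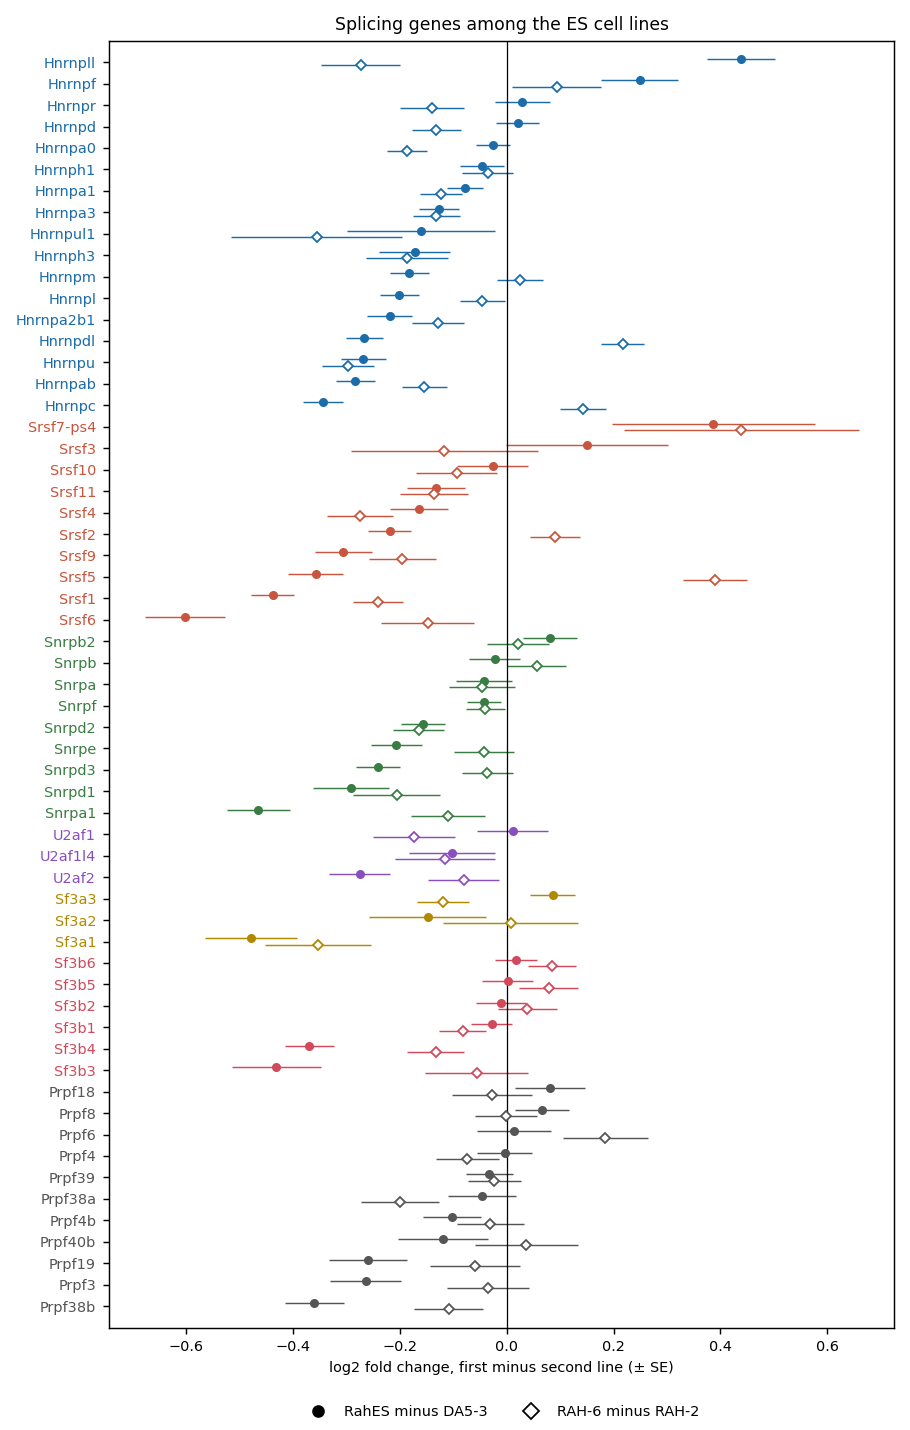
Log2 fold change (x axis, ± SE) of 59 splicing genes among ES cell lines, filled circles for RahES (n = 6) minus DA5-3 (n = 3) and open diamonds for RAH-6 minus RAH-2 (n = 3 each), with colours for families. All values lie within 2-fold, most circles lie left of 0, and Hnrnpll and Hnrnpf are the circles right of 0 that passed the adjusted p.

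Taken line by line, RAH-6 against DA5-3 had 3 splicing genes higher and 30 lower by adjusted p (median -0.16), against 30% and 25.5% of all genes. RAH-2 against DA5-3 had 2 higher and 21 lower (median -0.064), against 27.6% and 22.6%. Both used the same DA5-3 arrays. Srsf6 had log2 fold changes of -0.68 ± 0.087 in RAH-6 and -0.53 ± 0.087 in RAH-2, and Snrpa1 of -0.52 ± 0.069 in RAH-6 and -0.41 ± 0.069 in RAH-2.

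RAH-6 against RAH-2 compares the haploid lines with each other. No splicing gene differed by 2-fold, as 0.603% of all genes did with higher and 0.194% with lower signals in RAH-6. Arrays did not overlap between the lines for 47.5% of the splicing genes, against 41.2% of all genes. By adjusted p alone 3 genes were higher and 10 lower in RAH-6 (5.08% and 16.9%), against 9.67% and 9.1% of all genes, and the median was -0.08 against 0.007. Median centring gave 1 higher and 25 lower, and the median of all genes was then -0.095. The median of the splicing genes minus that of all genes was -0.088 in the scaling used and -0.092 with quantile normalization. Median centring shifts all genes of an array alike and cannot change this difference. Srsf5, an SR protein, read 7284, 7656 and 7062 in RAH-6, against 5361, 6078 and 5361 in RAH-2, higher in RAH-6 by 0.39 ± 0.059 (limma, adjusted p = 0.0010). DA5-3 read 7839.9, 8099.7 and 8712 for this gene, above both haploid lines. Hnrnpdl was higher in RAH-6 by 0.22 ± 0.04 and Hnrnpc by 0.14 ± 0.043.

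Lower in RAH-6 were Sf3a1 (-0.35 ± 0.10), Hnrnpu (-0.30 ± 0.049), Srsf4 (-0.27 ± 0.062), Hnrnpll (-0.27 ± 0.074) and Srsf1 (-0.24 ± 0.047). The sign of Srsf1 depended on the probe set, since its other set averaged 5286 in RAH-6 and 4646 in RAH-2, higher in RAH-6 by 0.19 without overlap (limma, adjusted p = 0.027). Hnrnpu, which binds RNA and chromatin scaffolds, read 10319, 10192 and 9522 in RAH-6, against 12646, 11942 and 12334 in RAH-2 without overlap (limma, adjusted p = 0.0016). Hnrnpa0 (-0.19), Srsf9 (-0.20), Snrpd2 (-0.16), Hnrnpab (-0.15) and Hnrnpa1 (-0.12) were lower by less, and other sets of Hnrnpa1 gave 0.13 and -0.083, neither past the adjusted p. Leaving out single arrays of either line left between 4 and 9 genes lower, and the calls of Sf3a1, Srsf9, Snrpd2, Hnrnpa1 and Hnrnpll each ended without at least 1 of these arrays. Prpf8 (-0.0015 ± 0.059), Prpf19 (-0.06 ± 0.084), Snrpb (0.056 ± 0.055), Sf3b1 (-0.082 ± 0.044), U2af1 (-0.17 ± 0.076), U2af2 (-0.081 ± 0.067), Srsf2 (0.09 ± 0.046), Hnrnpa2b1 (-0.13 ± 0.048) and Srsf3 (-0.12 ± 0.18) did not pass the adjusted p.

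Both genes that were too dim for a test can be given as signals. Snrpn, an imprinted gene of the SmB type, had mean signals of 61.9 for RAH-6, 75.4 for RAH-2, 116 for DA5-3 and 34.5 for round sperm cells. Bright sets annotated also to Snurf, and left out, went the other way between the ES lines. They averaged 1835 and 1380 in RahES, against 1279 and 814 in DA5-3. Srsf7, an SR protein, had 57.9 for RAH-6, 44.8 for RAH-2, 44.5 for DA5-3 and 110.5 for round sperm cells. Most of these signals were below 100 and near background.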

How the data were processed

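Total RNA of 12 samples, 3 in each of 4 groups, was hybridised to 1-colour arrays. The values deposited by the authors are log2 signals that the submitters' processing notes call MAS5, version not given in the sources used here, and no centring of genes was present. Another deposited table with 112 value columns, whose array names match no sample label, was not used. Signals were returned to the linear scale and scaled to a 2% trimmed mean of 500 per array, 16 was added, and log2 was taken. A probe set entered a fit where 3 or more of its arrays reached a signal of 100.

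The array holds 31099 probe sets, of which 20832 name 1 gene, 436 several and 9831 none. RefSeq's GRCr8 gene table matched 20764 of the 20832 and changed 0 symbols. Limma 3.58.1 in R 4.3.3 was run with a variance trend and Benjamini-Hochberg adjustment over all genes, on all 12 arrays for comparisons with round sperm cells (10529 genes) and on the 9 ES cell arrays otherwise (9282 genes), and was tested on simulated data. RahES is the mean of both lines with equal weight. Where all arrays of a group were below 100, a fold is a bound against 100. The number of arrays limits the precision.

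Genes named in comparisons with round sperm cells were the 10 largest called changes each way without overlap of arrays. Among ES lines they were up to 10 past the adjusted p. Fixed genes (Hnrnpa1, Hnrnpk, Hnrnpa2b1, Srsf1, Srsf2, Srsf3, Snrpn, Snrpb, Sf3b1, U2af1, U2af2, Prpf8, Prpf19), up to 4 called genes per list and genes whose probe sets were called in opposite directions were added, and further family members are given for completeness, chosen with their values seen. The genes, lists and rules were chosen with earlier results of these data known. Samples were not treated as paired by replicate number, since the labels tie no numbers together. The 18 same-numbered pairs had correlations of deviations between -0.0855 and 0.0589. Pairs with different numbers were not compared, so these values cannot exclude shared handling. Alternatives covered offset, scaling, filter, probe set, replicate block, arrays in the fit and each array left out.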

Additional observations from a re-analysis of the deposited data

Results flagged for a closer look

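The haploid lines differed from each other, by limma's test of the difference of their changes against DA5-3, in 6 of the genes named in RahES against DA5-3. Because both changes use the same DA5-3 arrays, the difference equals that of RAH-6 minus RAH-2. Higher in RAH-6 were Srsf5 (0.39 ± 0.059, adjusted p = 0.0010), with changes against DA5-3 of -0.16 in RAH-6 and -0.55 in RAH-2, and Hnrnpc (0.14 ± 0.043, adjusted p = 0.036), with -0.27 in RAH-6 and -0.42 in RAH-2. Lower in RAH-6 were Srsf1 (-0.24 ± 0.047, adjusted p = 0.0045), with -0.56 in RAH-6 and -0.32 in RAH-2, and Sf3a1 (-0.35 ± 0.10, adjusted p = 0.028), with -0.66 in RAH-6 and -0.30 in RAH-2. Also lower were Hnrnpll (-0.27 ± 0.074, adjusted p = 0.022), higher than DA5-3 by 0.30 in RAH-6 and 0.58 in RAH-2, and Hnrnpa1 (-0.12 ± 0.039, adjusted p = 0.043), with -0.14 in RAH-6 and -0.017 in RAH-2. By other probe sets, Srsf1 was higher in RAH-6 (0.19, adjusted p = 0.027), and Hnrnpa1 had 0.13 and -0.083 and Sf3a1 -0.25, which did not pass the adjusted p. By the sets used, all 3 arrays of each line lay on the stated side of the other line for these 6 genes. They were chosen by adjusted p between the same lines, and 41.2% of all genes had no overlap there.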

How the results depend on the processing

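In RahES against round sperm cells, between 35 and 38 splicing genes were higher and 3 or 4 lower under the alternatives run. The median of 1.74 moved to 1.42 with median centring, 1.67 with quantile normalization, 1.67 without a filter and 1.58 with the probe set brightest in round sperm cells, and single arrays left out gave 1.71 to 1.77. In DA5-3 against round sperm cells the median moved to 1.56 with median centring, 1.98 with quantile normalization and 1.52 with the probe set brightest in round sperm cells. Srsf10 changed direction with that probe set, to -1.23 in RahES and -1.18 in DA5-3, and Hnrnpa2b1 to 0.35 in RahES against DA5-3. In RAH-6 against RAH-2, 3 genes were higher and 10 lower by adjusted p, and median centring gave 1 higher, 25 lower and a median of -0.18. With all 12 arrays in the fit 3 were lower, and single arrays left out gave 4 to 9 lower and 2 to 3 higher. Dropping replicate 1 of DA5-3, replicate 2 of RAH-2 and replicate 1 of round sperm cells together, chosen after seeing the data, gave 5 higher; the cause of these moves was not tested. With the replicate number as a block, RahES against round sperm cells kept 38 higher and 3 lower, RahES against DA5-3 2 higher and 27 lower, and RAH-6 against RAH-2 had 2 higher and 9 lower, with the calls of Srsf9 and Hnrnpa1 ending (adjusted p = 0.052 and 0.071). Among all genes in RAH-6 against RAH-2 the share of calls that were higher was 75.7%, against 64.1% with median centring and 65.4% with an offset of 64. Signals near 100, as of Srsf3 and Srsf7-ps4, limit what can be said of dim genes.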

Other observations

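Probe sets annotated to a splicing gene together with another symbol were outside all comparisons. A set annotated to both Snurf and Snrpn, which share a transcript, averaged 1835 ± 166 in RahES (SD, n = 6), 1279 ± 155 in DA5-3 and 17.7 ± 3.1 in round sperm cells (SD, n = 3 each). Another set of both averaged 1380 ± 190 in RahES, 814 ± 108 in DA5-3 and 28.6 ± 19.2 in round sperm cells. The brighter set annotated to Srsf3 and LOC100910660 averaged 13512 ± 987 in RahES, 11471 ± 300 in DA5-3 and 812 ± 162 in round sperm cells. Only the set of Snrpc and Snrpc-ps3 was higher in round sperm cells, with 7634 ± 170 there, 4966 ± 170 in RahES and 5044 ± 211 in DA5-3.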
